A study of Saccharomyces cerevisiae with 23 samples.

Results

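The 8 genes described here are the usual auxotrophic and counterselection markers of budding yeast (Saccharomyces cerevisiae). They are URA3 (YEL021W), LEU2 (YCL018W), HIS3 (YOR202W), MET17 (YLR303W), LYS2 (YBR115C), CAN1 (YEL063C), LYP1 (YNL268W) and TRP1 (YDR007W), and they were taken by systematic gene ID from the 6596 genes of the deposited count table. All 8 passed the low-count filter that left 6111 tested genes, URA3 only through the 3 populations in which it was high. RNA was sequenced from 23 libraries in 8 groups, to compare aneuploid populations, whose cells carry differing abnormal chromosome sets, with euploid ones. The populations were obtained by tetrad dissection (a euploid one, T1 and T2) or by a-selection (another euploid one, A1, A2 and A3), with 3 libraries for each population and 2 for a haploid control.

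Every group carries the strain label BY4741 and a genotype label of euploid or aneuploid. The haploid control and the 2 euploid populations are labelled euploid, and T1, T2, A1, A2 and A3 are labelled aneuploid. All groups were grown overnight in the rich medium YPD and then for 4 h in fresh YPD at 23 °C, without treatment. The labels name no marker allele, cassette or parental cross, and they do not say which cells of a population carry an allele. The level of a marker was therefore read as a property of the whole population. In such bulk libraries, fewer cells that carry a gene and less RNA per cell cannot be told apart.

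Auxotrophic markers encode biosynthetic enzymes, so that a cell without the gene grows only when the end product is supplied, and a plasmid or cassette that carries the gene restores growth. Some can also be selected against, because the enzyme or permease makes the cell sensitive to a toxic analogue. The strain BY4741 as commonly described is MATa, lacks LEU2, MET17 and URA3 and carries an internal deletion in HIS3, while its LYS2, TRP1, CAN1 and LYP1 are intact. YPD supplies amino acids and nucleobases, so none of these enzymes is needed for growth in it by a cell with normal uptake.

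Library totals ran from 12719710 to 19327344 counts, and levels are given in CPM, counts per 1e+06 counts of the library's total after adjustment by TMM factors. A count of 0 allowed up to 3 counts, and this limit and the counting intervals below cover counting error only. The groups differed in many genes besides the markers. The summed level of 10 ribosome biogenesis genes averaged 3012 CPM in the haploid control, 8.18 CPM in the euploid tetrad population and 23.5 CPM in the euploid a-selection population. It averaged 176 CPM in T1, 677 CPM in T2, 172 CPM in A1, 218 CPM in A2 and 829 CPM in A3. The sum of 6 stress genes was 88.4 CPM on average in the haploid libraries. It was 22629 CPM in the euploid tetrad and 24000 CPM in the euploid a-selection population, and 4947 to 12392 CPM as means of the aneuploid ones. The 4 alpha-cell marker genes summed to 7859 CPM in the euploid tetrad population, 1765 CPM in T1 and 1550 CPM in T2, against 49.9 to 79.3 CPM as the means of the other groups. All 5 a-cell markers were read in each group, with sums of 969 to 4527 CPM. The part of growth state and of cell-type mixture in the marker levels was not tested.

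The stretches from 250 bases before to 50 bases after the start of the coding sequence are shown for the 4 markers whose levels spanned the widest range. They are RefSeq sequence of the reference genome, build R64, read 5′ to 3′ on the coding strand, and the alleles in these cells may differ from it. Capitals mark the ATG start codon and any match to a searched motif.
URA3, chrV:115917-116216, plus strand: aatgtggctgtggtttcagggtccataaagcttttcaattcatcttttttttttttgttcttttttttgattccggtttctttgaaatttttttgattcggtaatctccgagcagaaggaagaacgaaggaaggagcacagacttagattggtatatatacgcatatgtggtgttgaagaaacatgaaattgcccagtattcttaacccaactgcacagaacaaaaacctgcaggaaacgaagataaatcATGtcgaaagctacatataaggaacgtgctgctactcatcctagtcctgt
LEU2, chrIII:91074-91373, plus strand: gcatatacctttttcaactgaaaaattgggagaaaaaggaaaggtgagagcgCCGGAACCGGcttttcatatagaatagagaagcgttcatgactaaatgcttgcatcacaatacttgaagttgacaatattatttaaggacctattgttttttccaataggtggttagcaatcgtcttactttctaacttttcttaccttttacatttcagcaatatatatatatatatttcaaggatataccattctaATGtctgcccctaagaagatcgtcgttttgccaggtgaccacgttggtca
MET17, chrXII:732292-732591, plus strand: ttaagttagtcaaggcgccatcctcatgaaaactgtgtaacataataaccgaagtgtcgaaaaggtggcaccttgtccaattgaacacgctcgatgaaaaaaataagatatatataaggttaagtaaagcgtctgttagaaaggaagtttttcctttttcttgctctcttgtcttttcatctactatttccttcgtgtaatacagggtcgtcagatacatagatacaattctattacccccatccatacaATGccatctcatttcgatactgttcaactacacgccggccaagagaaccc
LYS2, chrII:473877-474176, minus strand: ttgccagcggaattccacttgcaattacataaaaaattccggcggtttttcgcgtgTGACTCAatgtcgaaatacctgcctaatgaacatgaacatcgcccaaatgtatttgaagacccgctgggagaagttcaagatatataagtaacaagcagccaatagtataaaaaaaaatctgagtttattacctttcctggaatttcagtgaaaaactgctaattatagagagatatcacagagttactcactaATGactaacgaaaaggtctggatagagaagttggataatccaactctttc

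The motifs were searched on both strands of the windows of 6001 genes, of which 5997 had ATG at the start. The sequence TGACTCA of Gcn4, the activator of amino acid synthesis genes, was in 2.73% of windows and began 194 bases before the LYS2 start codon. The palindromic motif of Leu3, the leucine pathway regulator, was in 0.133% of windows and began 198 bases before the LEU2 start codon. CACGTG of Cbf1, a regulator of sulfur amino acid genes, was in 2.92% of windows and, among the 8 markers, matched 43 bases before the TRP1 start codon. No member window held AAACTGTGG of Met31/Met32 (0.433% of windows), the gapped motif of Lys14, regulator of lysine genes (4.38%), or that of Ppr1, regulator of uracil genes (0.0167%). These are matches of letters in a window and say nothing of binding.

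URA3 was abundant in T1, T2 and A1 and nearly unread in the other 5 groups. It encodes orotidine-5′-phosphate decarboxylase, the last enzyme of uridine monophosphate synthesis, which also converts fluoroorotic acid to a toxic product, and lies at chrV:116167-116970. The levels were 178.5, 181.4 and 182.5 CPM in the libraries of T1, 140.8, 140.6 and 140.4 CPM in those of T2, and 640.9, 657.7 and 670.6 CPM in those of A1. These 3 populations did not overlap, in the order A1, T1 and T2. The other 14 libraries held few counts. The haploid control had 0 counts in both libraries, the euploid tetrad population 0, 3 and 4, the euploid a-selection population 2, 1 and 0, A2 1, 3 and 7, and A3 1, 1 and 6. In CPM none of these 14 libraries exceeded 0.503, and their order cannot be read at such counts.

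Against the 7 counts of the euploid tetrad population, URA3 in T1 was 1002 times as high, with a counting interval (95%) of 486 to 2494, and in T2 it was 779 times as high, with an interval of 378 to 1939. A1 was 10750 times as high as the euploid a-selection population, whose 3 libraries held 3 counts in all, with an interval of 3678 to 52129. Between the high populations, T2 was lower than T1 by a log2 fold change of -0.36 ± 0.07 (SE; adjusted p = 7.43e-05, edgeR quasi-likelihood test). Among the a-selection populations, A2 and A3 held 11 and 8 counts in all against the 3 of their euploid population. The ratio was 3.62 for A2 (counting interval 0.956 to 20.2) and 2.71 for A3 (0.650 to 15.8), and both intervals include 1. URA3 entered the test through T1, T2 and A1, so no test between the other groups is read as a result.

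**Figure D1:**
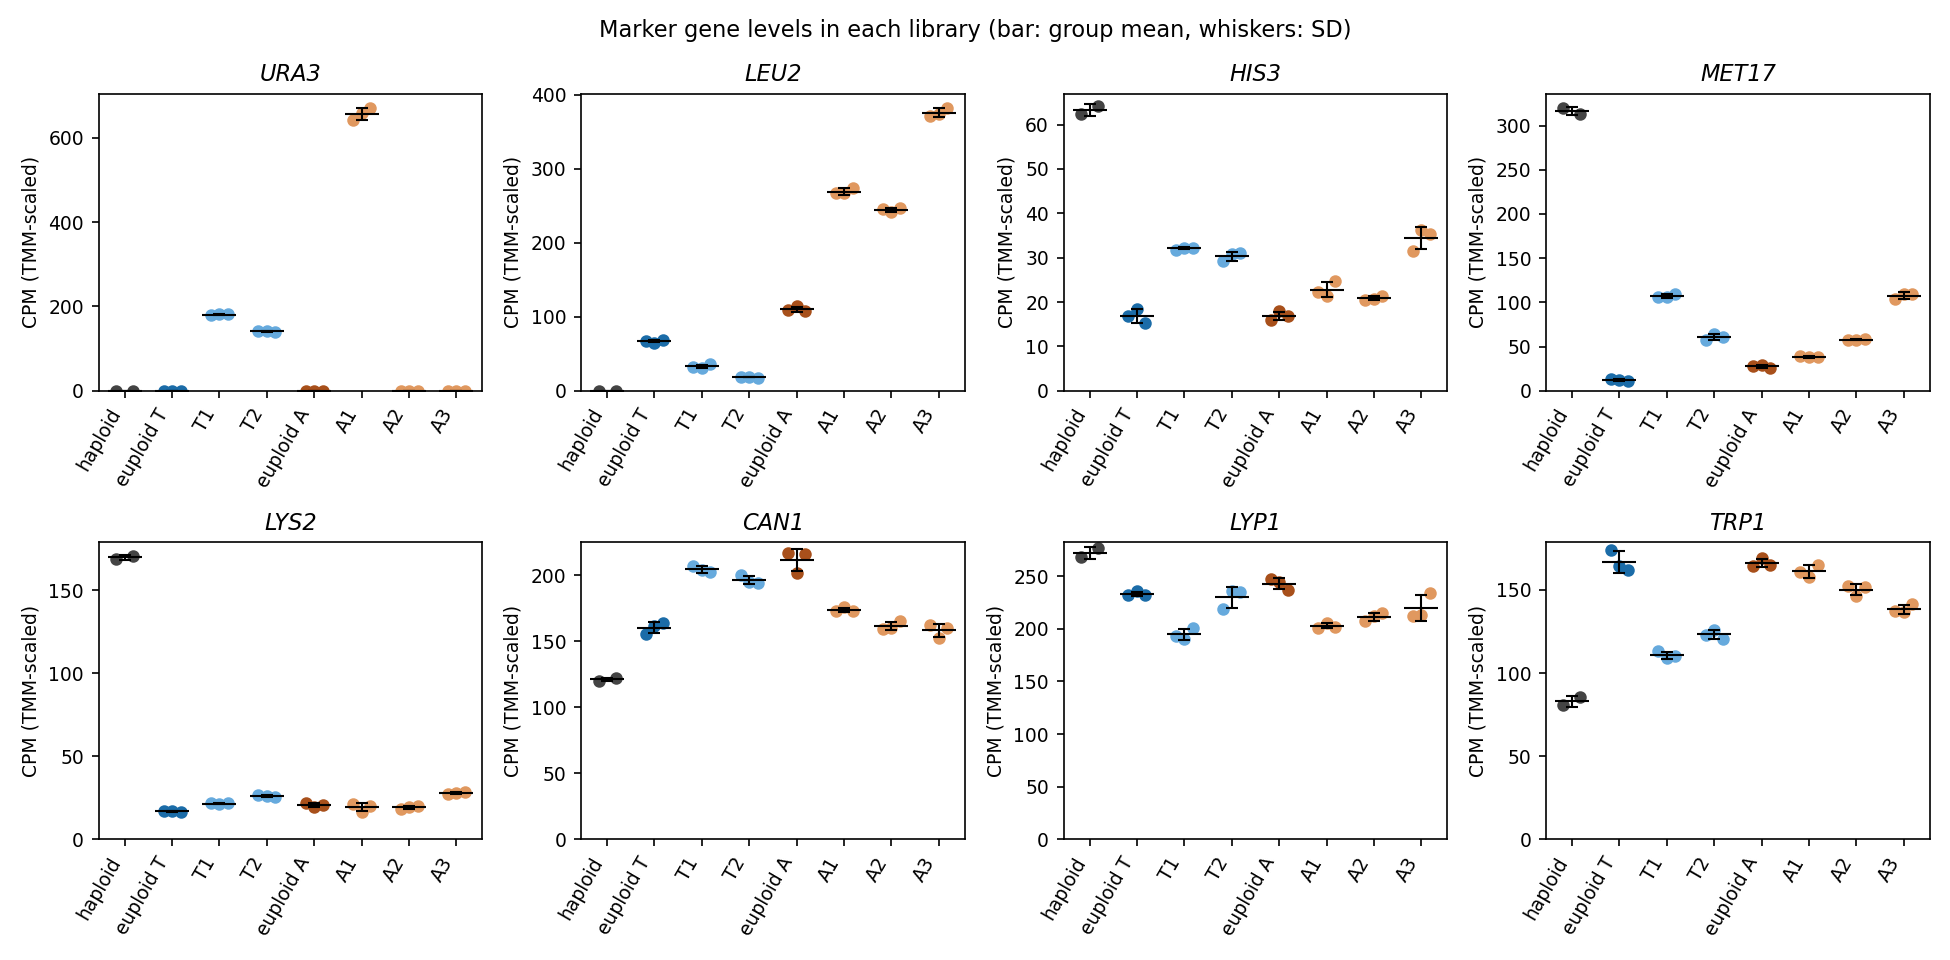
Levels of the 8 marker genes in each of the 23 libraries, in TMM-scaled CPM on linear axes from 0, by group, with 1 point a library, a bar at the group mean and whiskers of 1 SD. URA3 stands at 140.4 CPM or more in T1, T2 and A1 and at 0.503 CPM or less elsewhere, LEU2 is near 0 in the haploid control alone, and MET17 and LYS2 are highest in the haploid control.

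LEU2 was read in all 7 populations but with only 2 counts in the haploid control, and it moved in opposite directions by route. It encodes beta-isopropylmalate dehydrogenase of leucine synthesis and lies at chrIII:91324-92418. The haploid control held 2 counts and 0 counts. The level was 67.1, 65.2 and 68.0 CPM in the euploid tetrad libraries, 32.3, 31.2 and 35.5 CPM in T1, and 18.7, 19.0 and 17.9 CPM in T2. On the a-selection route it was 108.9, 114.2 and 107.4 CPM in the euploid libraries, 266.8, 267.1 and 274.3 CPM in A1, 245.2, 241.2 and 246.7 CPM in A2, and 371.5, 374.0 and 382.8 CPM in A3. No neighbours in the order of the 8 groups overlapped, and each a-selection population stood above each tetrad population.

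By the edgeR quasi-likelihood test, LEU2 fell in T1 by a log2 fold change of -1.02 ± 0.05 (SE; adjusted p = 2.79e-15) and in T2 by -1.85 ± 0.05 (8.59e-20). It rose in A1 by 1.29 ± 0.04 (5.12e-18), in A2 by 1.15 ± 0.04 (4.12e-17) and in A3 by 1.77 ± 0.04 (3.73e-21). The median log2 fold change of the tested genes of chromosome III lay between -0.08 and 0.08 in these 5 comparisons. The change of LEU2 on the tetrad route minus that on the a-selection route was -2.83 ± 0.05 (3.95e-22, same test). That contrast called 71.6% of tested genes, 33.1% higher and 38.6% lower, and its p-values cover no spread between populations of a route. LEU2 was also higher in the euploid a-selection than in the euploid tetrad population, by 0.72 ± 0.04 (adjusted p = 9.44e-13).

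MET17 and LYS2 were highest in the haploid control and lowest in the euploid tetrad population. MET17, also known as MET15 and MET25, encodes the O-acetylhomoserine sulfhydrylase of sulfur assimilation and lies at chrXII:732542-733876. It stood at 319.6 and 313.6 CPM in the haploid control, at 13.3, 11.7 and 11.0 CPM in the euploid tetrad libraries and at 27.9, 29.5 and 26.1 CPM in the euploid a-selection libraries. The haploid control held 8903 MET17 counts in all, so the data go against the commonly described BY4741 genotype at this gene, while 0 counts of URA3 and 2 counts of LEU2 do not. The populations carry the same strain label and depart from that genotype at more genes. Each held at least 466 MET17 and 895 LEU2 counts in all, and T1, T2 and A1 at least 6771 URA3 counts. The alpha-cell markers in the tetrad populations, 7859 CPM in the euploid one, also go against MATa cells alone. Reads within a gene do not show which allele they came from, so an intact HIS3 and the internal deletion could not be told apart in counts per gene. The haploid control is therefore named below as the haploid control labelled BY4741 where its genotype matters.

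MET17 was higher than in the euploid population in each of the 5 aneuploid populations. It reached 106.5, 105.8 and 109.8 CPM in T1, 57.9, 63.9 and 60.5 CPM in T2, 39.1, 37.8 and 38.0 CPM in A1, 57.3, 57.5 and 59.0 CPM in A2, and 103.6, 110.0 and 109.6 CPM in A3. T1 and A3 overlapped, as did T2 and A2, and A1 was the lowest of the 5. The log2 fold change was 3.16 ± 0.05 in T1 (adjusted p = 5.54e-24), 2.34 ± 0.06 in T2 (3.28e-21), 0.46 ± 0.05 in A1 (1.40e-08), 1.06 ± 0.05 in A2 (1.95e-15) and 1.95 ± 0.04 in A3 (2.46e-21; edgeR quasi-likelihood test). The rise in T1 ranked 166th by size among the 6111 tested genes, and that in A1 ranked 1769th. Against the haploid control labelled BY4741, MET17 was lower by -4.72 ± 0.05 in the euploid tetrad and by -3.51 ± 0.05 in the euploid a-selection population.

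LYS2 encodes the alpha-aminoadipate reductase of lysine synthesis, which can be selected against with alpha-aminoadipate, and lies at chrII:469748-473926 on the minus strand. The haploid control held 168.6 and 170.8 CPM, and the other 21 libraries held 16.4 to 28.7 CPM. The mean of the haploid control was 6.04 times that of A3, the next group. Within the 7 populations A3 was the highest, at 27.5, 28.0 and 28.7 CPM, followed by T2, at 26.4, 26.2 and 25.6 CPM. T1, the euploid a-selection population, A1 and A2 overlapped in their order from 21.5 to 19.1 CPM. The euploid tetrad population had the lowest mean, with libraries at 17.2, 16.8 and 16.7 CPM, although 1 library of A1 lay below them.

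LYS2 rose in T1 by a log2 fold change of 0.35 ± 0.07 (SE; adjusted p = 7.88e-05), in T2 by 0.62 ± 0.07 (1.32e-08) and in A3 by 0.46 ± 0.06 (6.90e-07; edgeR quasi-likelihood test). It was not called in A1, at -0.08 with a 95% interval of -0.21 to 0.06, or in A2, at -0.10 with an interval of -0.24 to 0.04. In the mean of A1, A2 and A3 it was not called, at 0.09 ± 0.05, but it was called in that mean without replicate 1 of the euploid a-selection population (0.14) and without replicate 2 of A1 (0.13). It was also called with library totals (0.18), without A1 (0.18) and without A2 (0.19), and it was -0.08 without A3, so the value of this mean rests on which populations enter it.

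HIS3 encodes the imidazoleglycerol-phosphate dehydratase of histidine synthesis and lies at chrXV:721946-722608, where it shares 44 bases with YOR203W (mean level 0.207 CPM). It had the same 2 extremes, with 62.4 and 64.2 CPM in the haploid control and 16.9, 18.4 and 15.2 CPM in the euploid tetrad libraries, but there the euploid a-selection libraries overlapped them at 15.9, 17.9 and 16.8 CPM. The levels were 31.8, 32.2 and 32.2 CPM in T1, 29.2, 30.7 and 31.0 CPM in T2, 22.2, 21.5 and 24.6 CPM in A1, 20.4, 20.8 and 21.3 CPM in A2, and 31.5, 36.1 and 35.3 CPM in A3. All 5 aneuploid populations stood above both euploid populations and below the haploid control. The rise was 0.93 ± 0.07 in T1, 0.84 ± 0.07 in T2, 0.43 ± 0.07 in A1, 0.30 ± 0.07 in A2 and 1.03 ± 0.06 in A3 (log2 fold change ± SE), each called by the edgeR quasi-likelihood test, with adjusted p from 8.06e-13 to 3.51e-04. The 2 euploid populations were not called different, at a log2 fold change of -0.00 with a 95% interval of -0.15 to 0.15.

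**Figure D2:**
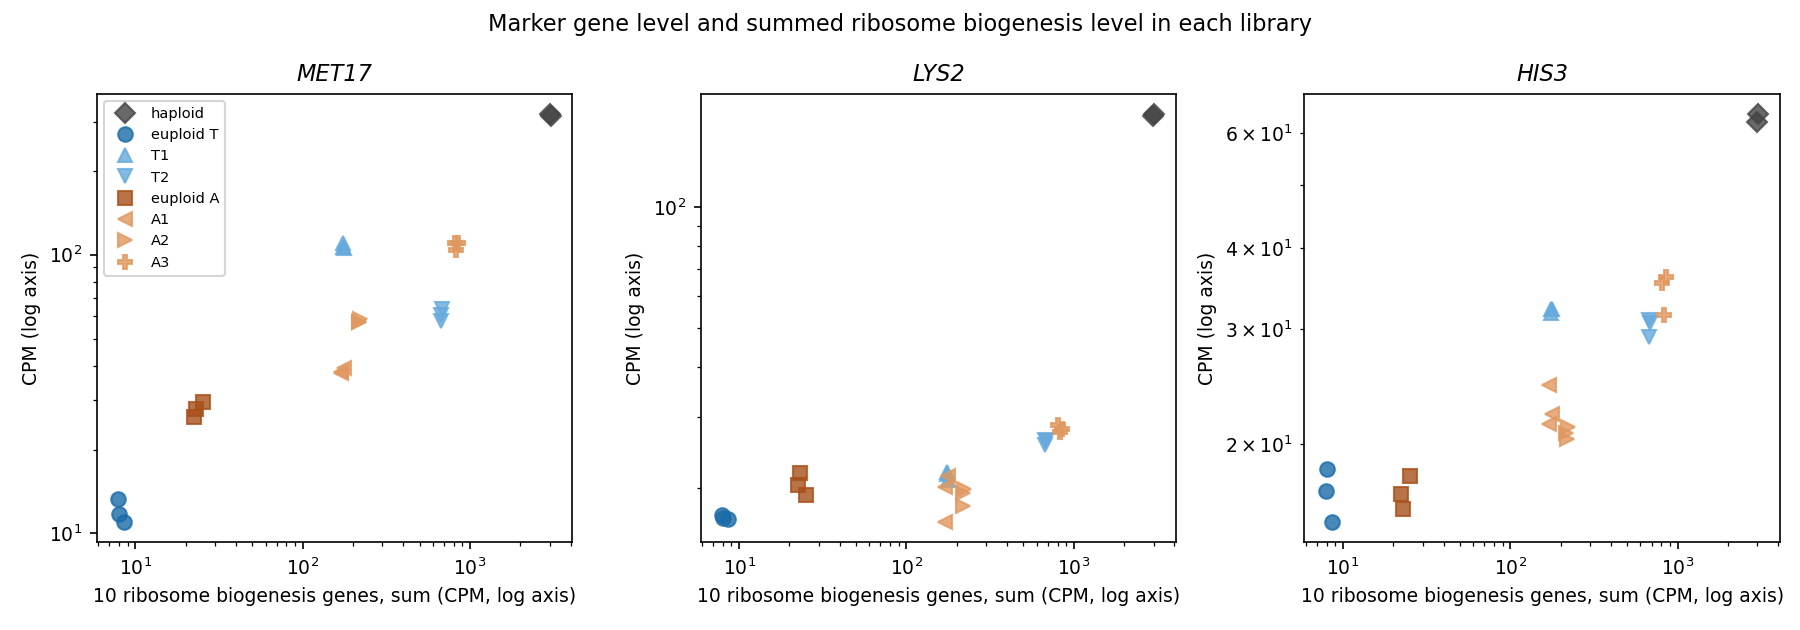
MET17, LYS2 and HIS3 in each of the 23 libraries (CPM, log axis) against the summed CPM of 10 ribosome biogenesis genes (log axis), with 1 symbol a library and 1 shape a group. The haploid control lies at the upper right with a sum of 3012 CPM on average and the euploid tetrad libraries at the lower left with 8.18 CPM, while T1 lies at the same MET17 level as A3 at a sum of 176 against 829 CPM.

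TRP1 had the opposite extremes, lowest in the haploid control and highest in the euploid populations. It encodes the phosphoribosylanthranilate isomerase of tryptophan synthesis, lies at chrIV:461842-462516 and shares 265 bases with the overlapping gene YDR008C, whose mean level was 2.63 CPM. The rule for assigning reads in that stretch is not stated in the labels. The haploid control held 80.8 and 85.4 CPM, T1 113.1, 109.0 and 110.4 CPM, and T2 123.1, 126.0 and 120.7 CPM. The euploid tetrad libraries, at 174.1, 164.4 and 161.8 CPM, overlapped the euploid a-selection libraries, at 164.7, 169.2 and 165.0 CPM, and A1, A2 and A3 followed with means of 161, 150 and 138 CPM. TRP1 fell in T1 by a log2 fold change of -0.59 ± 0.03, in T2 by -0.44 ± 0.03, in A2 by -0.15 ± 0.03 and in A3 by -0.26 ± 0.03 (edgeR quasi-likelihood test, adjusted p from 5.75e-14 to 2.67e-04). In A1 it was not called, at -0.04 with an interval of -0.11 to 0.02. With library totals alone as the scaling, the calls in T2 (-0.05) and A2 (-0.03) were lost.

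The permease genes had the smallest ratios of highest to lowest group mean. CAN1, at chrV:31694-33466 on the minus strand, encodes the arginine permease through which the toxic analogue canavanine enters, and LYP1, at chrXIV:138550-140385, encodes the lysine permease that takes up thialysine. CAN1 group means ran from 121 CPM in the haploid control to 211 CPM in the euploid a-selection population. LYP1 means ran from 195 CPM in T1 to 272 CPM in the haploid control, but this order depended on the scaling. With library totals, LYP1 against the haploid control was at a log2 fold change of -0.03 in the euploid tetrad and 0.26 in the euploid a-selection population. Neither gene was close to 0 in any library, the lowest being 120.1 CPM for CAN1 and 190.7 CPM for LYP1.

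CAN1 moved in opposite directions by route. The libraries held 155.5, 161.4 and 163.9 CPM in the euploid tetrad population, 207.1, 203.6 and 202.3 CPM in T1, and 199.8, 195.1 and 194.1 CPM in T2. They held 217.0, 201.4 and 215.8 CPM in the euploid a-selection population, 172.8, 175.5 and 172.5 CPM in A1, 159.4, 159.9 and 165.0 CPM in A2, and 162.2, 152.2 and 159.9 CPM in A3. Each aneuploid population stood apart from its own euploid population, above it on the tetrad route and below it on the a-selection route. The log2 fold change was 0.35 ± 0.03 in T1, 0.29 ± 0.03 in T2, -0.28 ± 0.03 in A1, -0.39 ± 0.03 in A2 and -0.42 ± 0.03 in A3 (edgeR quasi-likelihood test, adjusted p from 7.97e-12 to 1.06e-08). The euploid populations themselves differed, by 0.40 ± 0.03 in favour of a-selection, so that T1 and the euploid a-selection population overlapped.

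LYP1 was lower in 4 of the 5 aneuploid populations. The log2 fold change was -0.26 ± 0.03 in T1, -0.26 ± 0.03 in A1, -0.20 ± 0.03 in A2 and -0.14 ± 0.03 in A3 (adjusted p from 2.67e-07 to 4.19e-04, edgeR quasi-likelihood test). T2 was not called, at -0.02 with a 95% interval of -0.09 to 0.05. With library totals as the scaling, T1 was at 0.02 and T2 at 0.36, so the direction on the tetrad route depended on the scaling.

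**Figure D3:**
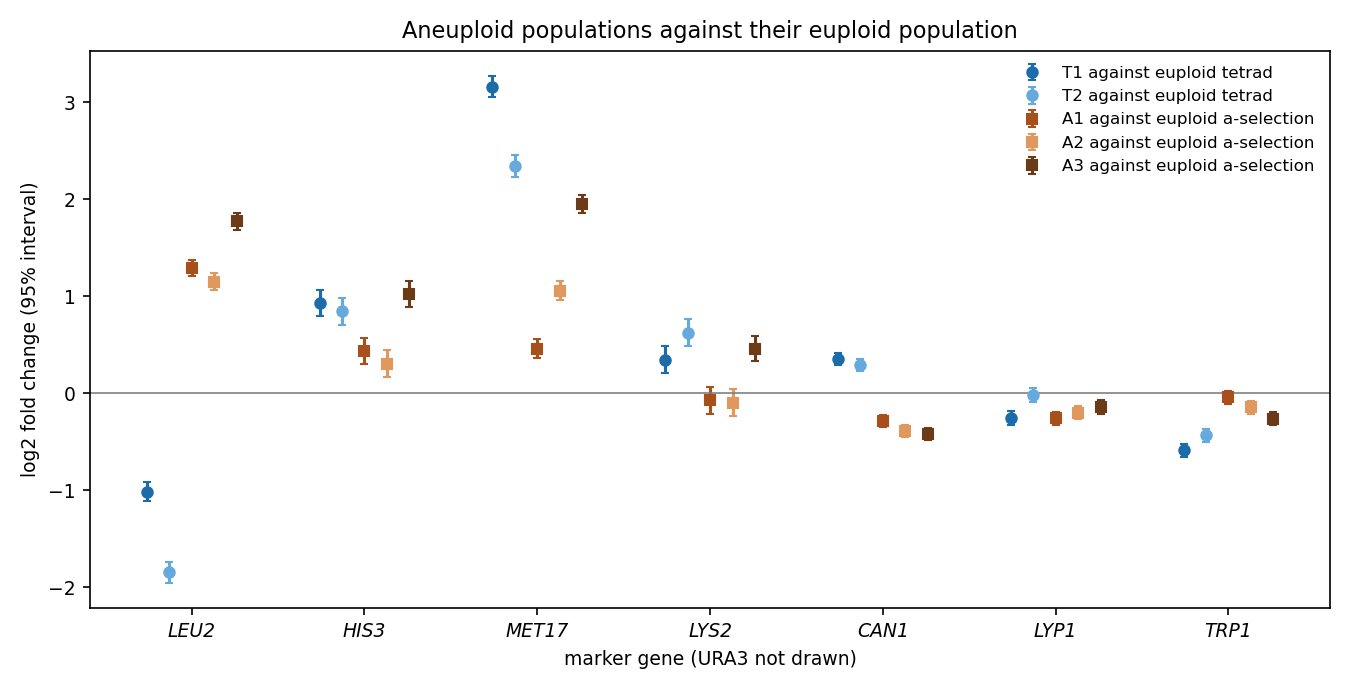
Log2 fold change of 7 marker genes in each aneuploid population against the euploid population of its own route, with 95% intervals from the edgeR fit. URA3 is not drawn because its euploid libraries were near 0. LEU2 and CAN1 lie on opposite sides of 0 by route, MET17 and HIS3 lie above 0 in all 5 comparisons, and the T1 and T2 points share the same euploid tetrad libraries.

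Counted over the 8 genes, all 8 were called in T1, where 81.1% of the 6111 tested genes were. Of the 8, 5 were higher (38.2% of tested genes) and 3 lower (43% of tested genes). In T2, with 84.9% of tested genes called, 5 were higher (40.5%), 2 lower (44.4%) and 1 was not called. In A1, with 72.4% called, 4 were higher (36.6%), 2 lower (35.7%) and 2 not called. In A2, with 72.2% called, 3 were higher (36.4%), 3 lower (35.9%) and 2 not called. In A3, with 79.9% called, 4 were higher (40.2%), 3 lower (39.7%) and 1 was not called. With 8 genes these counts are near the shares of all tested genes, so the number of members called is no result about them. The median member was at 0.35 in T1 and 0.46 in T2, against -0.04 for both over the tested genes, and at 0.20 in A1, 0.10 in A2 and 0.74 in A3, against 0.01, 0.00 and 0.00. These medians take in URA3, which passed the filter only through T1, T2 and A1, so they are no result about the members. In both A1 and A2 the changes of LYS2, CAN1, LYP1 and TRP1 were negative and those of LEU2, HIS3 and MET17 positive.

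Within a route, T2 and T1 differed in 6 of the 8 genes, where 69.1% of tested genes were called. LYS2, LYP1 and TRP1 were among the 35.9% higher in T2, and URA3, LEU2 and MET17 among the 33.2% lower. CAN1, not called with TMM, was called lower in T2 with RLE factors (-0.069) and with only the groups compared (-0.067). With library totals it was at 0.052 and not called. A1 and A2 differed in 5 genes, 4 higher and 1 lower in A1, where 34.2% of tested genes were called, 15.4% higher and 18.8% lower. The 5 called and 4 higher include URA3, which passed the filter only through T1, T2 and A1. This count is therefore no result about the members. URA3 was 2970 times as high in A1 as in A2 (counting interval 1660 to 5951), and MET17 was lower in A1 by -0.60 ± 0.04 (SE; adjusted p = 5.04e-10, edgeR quasi-likelihood test). LEU2 (0.14 ± 0.04), CAN1 (0.10 ± 0.03) and TRP1 (0.10 ± 0.03) were higher in A1, and all 3 of these calls were lost with library totals as the scaling (0.090, 0.055 and 0.052). LYP1, not called with TMM, was called lower in A1 with library totals (-0.11). The TRP1 call was also lost at an adjusted p threshold of 0.01 and without replicate 3 of A1 or replicate 2 of A2, at 0.08 in both. A3 and A2 differed in 5 genes, where 64.5% of tested genes were called. LEU2, HIS3, MET17 and LYS2 were higher in A3 (34.2% of tested genes) and TRP1 was lower (30.2%). CAN1, not called with TMM, was called lower in A3 with upper-quartile factors (-0.074) and library totals (-0.080).

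The euploid populations differed from each other in 4 genes, where 70.6% of tested genes were called, 35.5% higher and 35.1% lower in the a-selection population. LEU2, MET17, LYS2 and CAN1 were higher in the a-selection population, and LYP1, not called at 0.06, was called with RLE factors (0.096), upper-quartile factors (0.12), DESeq2 (0.096) and library totals (0.29). MET17 was higher by a log2 fold change of 1.21 ± 0.06 (adjusted p = 2.86e-14, edgeR quasi-likelihood test) and LYS2 by 0.27 ± 0.07 (0.00136). Against the haploid control labelled BY4741, 8 genes were called in the euploid tetrad population (90.7% of tested genes called), 4 of them higher (47.1%) and 4 lower (43.6%). In the euploid a-selection population 7 were called (89.5%), 3 higher (45%) and 4 lower (44.4%). LEU2 was 938 times as high in the first (counting interval 260 to 7753) and 1550 times as high in the second (429 to 12800). Both ratios rest on 2 counts, both in replicate 1 of the haploid control, without which the control held 0 counts. Without replicate 2 the log2 fold changes were 8.76 and 9.48, against 9.73 and 10.45 with both. HIS3 was lower by -1.91 ± 0.07 in both, LYS2 by -3.33 ± 0.06 and -3.05 ± 0.06, and TRP1 was higher by 1.00 ± 0.04 in both. The 8 called and 4 higher in the euploid tetrad population include URA3, at 7 counts against 0. URA3 passed the filter only through T1, T2 and A1, so this call is no result. The call was also lost without replicate 1 or 2 of the haploid control or replicate 3 of the euploid tetrad population.

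Among counted genes that matched RefSeq, the nearest on either side of URA3 and LEU2 were read in every group. The one on the left of LEU2, YCL021W-A, lay 7326 bases away at group means of only 3.60 to 11.8 CPM. It was called lower in A1 (log2 fold change -0.51) and A2 (-0.65) and was not called in T1, T2 or A3. TIM9, which encodes a chaperone of mitochondrial import and lies 240 bases to the right of URA3, stayed between group means of 51.3 and 64.9 CPM, and none of the 5 aneuploid comparisons called it. GEA2, a vesicle transport exchange factor gene on the left of URA3, ran from 21.0 CPM in the euploid tetrad population to 133 CPM in the haploid control. It was called higher in all 5 aneuploid comparisons, by a log2 fold change of 1.29 in T1, 1.42 in T2, 0.37 in A1, 0.48 in A2 and 0.82 in A3. Between A1, with abundant URA3, and A2, with little, it was not called, at 38.1 and 41.1 CPM. NFS1, the cysteine desulfurase gene 358 bases to the right of LEU2, was called higher in T1 (log2 fold change 0.21), T2 (0.16) and A3 (0.20). In A1 and A2 it was not called. NFS1 averaged 105 CPM in the haploid control, in which LEU2 was near 0, and 67.5 to 90.4 CPM in the populations. The right neighbour of LYS2, the transketolase gene TKL2, ran the other way, from 8.79 CPM in the haploid control to 2430 CPM in the euploid a-selection population. ACO1, the aconitase gene to the right of MET17, averaged 1409 CPM in the euploid tetrad population, in which MET17 was lowest.

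**Figure D4:**
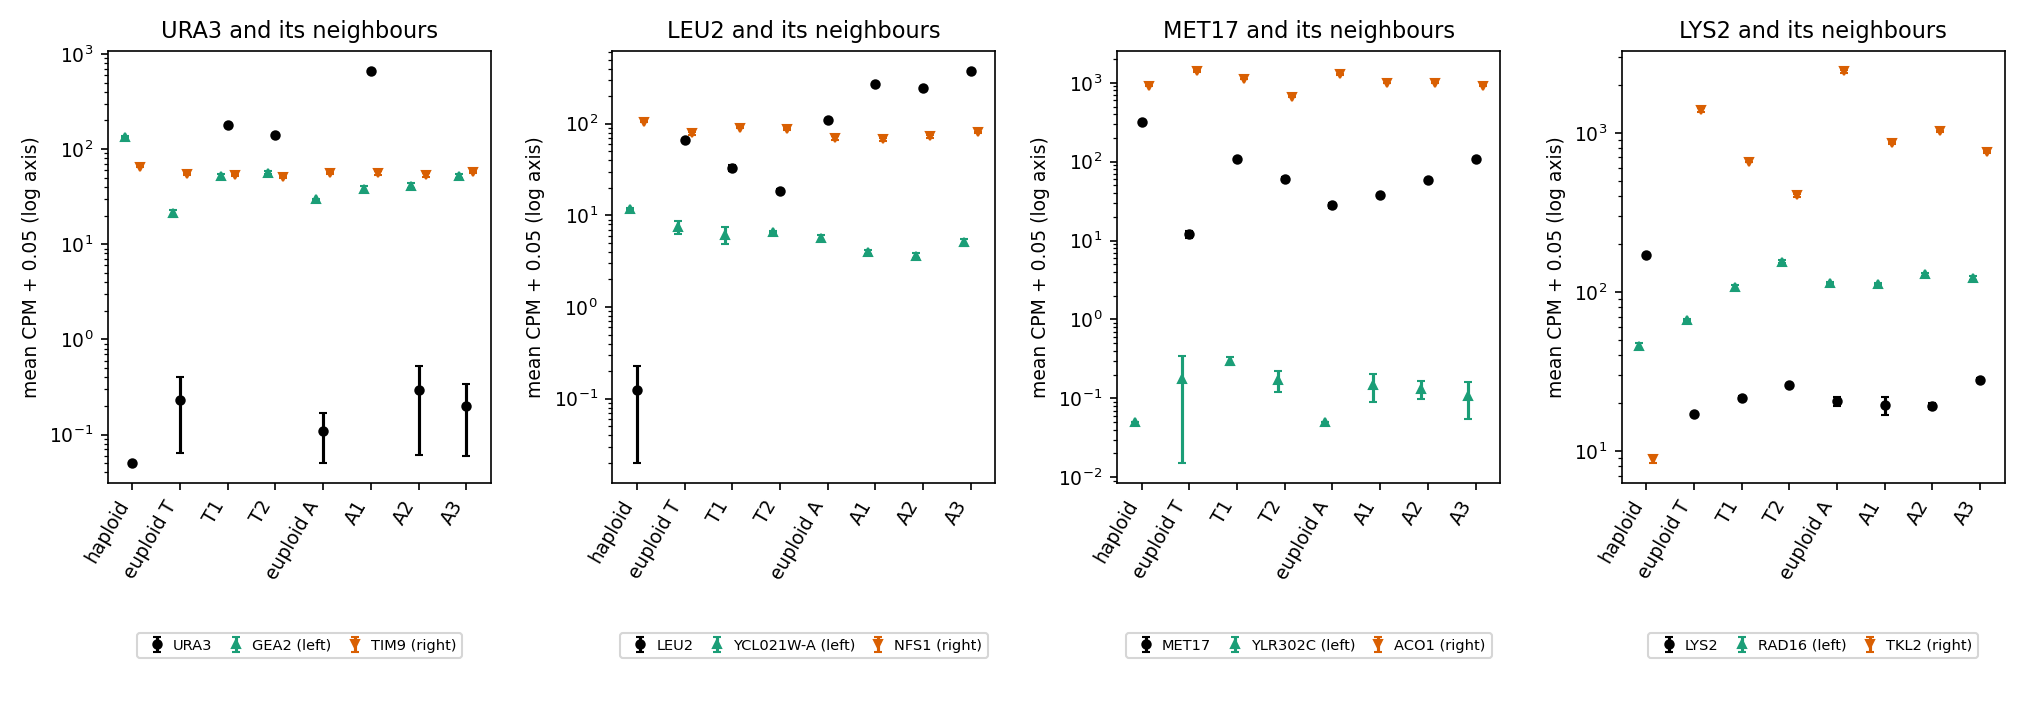
Mean CPM plus 0.05 (log axis) of URA3, LEU2, MET17 and LYS2 and of a neighbour on the left and right of each, by group. Neighbours are the nearest counted genes that matched RefSeq, and bars are 1 SD over 3 libraries (2 in the haploid control). TIM9 stays between 51.3 and 64.9 CPM across the groups over which URA3 runs from 0 to 656 CPM.

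Other genes of the same pathways, 93 tested genes outside the 8 markers, were described by their counts in the mean of T1 and T2 and in the mean of A1, A2 and A3, each against its euploid population. On the tetrad route 64 were higher, 23 lower and 6 not called (84.7% of tested genes called, 39.9% higher and 44.8% lower), with a median log2 fold change of 0.59 against -0.05 over all tested genes. On the a-selection route 62 were higher, 21 lower and 10 not called (78.8% called, 39.8% higher and 39% lower), with a median of 0.39 against 0.00. Against the haploid control, 24 were higher and 68 lower in the euploid tetrad population (47.1% and 43.6% of tested genes), and 22 were higher and 68 lower in the euploid a-selection population (45% and 44.4%). The shares of tested genes given here for each comparison also stand as the background of the single lists below. Genes named from a list were chosen for their large called changes on either route, so they do not stand for the whole list.

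The leucine list showed a contrast with LEU2. Of its 13 genes 11 were higher and 2 lower on the tetrad route, with a median of 2.21, while LEU2 fell by -1.43 ± 0.04 in the mean of T1 and T2. ILV5, the acetohydroxyacid reductoisomerase gene, averaged 35.6 CPM in the euploid tetrad population, 401 CPM in T1 and 487 CPM in T2, and rose by 3.64 ± 0.03. ILV2, the acetolactate synthase gene, rose by 3.44 ± 0.04 and BAT1, a branched-chain aminotransferase gene, by 3.55 ± 0.05. On the a-selection route 11 were again higher and 2 lower, and the median was 0.44. LEU2 there rose by 1.40 ± 0.04, ILV5 by 2.02 ± 0.03, ILV2 by 2.22 ± 0.04 and BAT1 by 2.02 ± 0.04 (log2 fold change ± SE throughout).

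In the methionine list 17 of 27 genes were higher and 6 lower on the tetrad route, and 12 were higher and 7 lower on the a-selection route. The list's median log2 fold change was 0.36 on the tetrad route and, near that of all tested genes, 0.09 on the a-selection route, so the 3 genes named next are its largest called changes and not typical of it. MET6, the methionine synthase gene, averaged 350 CPM in T1 and 208 CPM in T2 against 26.1 CPM in their euploid population, and 57.8, 107 and 253 CPM in A1, A2 and A3 against 42.5 CPM. The order of MET6 within each route was thus that of MET17. CYS3, the cystathionine gamma-lyase gene, rose by a log2 fold change of 2.71 ± 0.03 on the tetrad and 1.37 ± 0.03 on the a-selection route. HOM3, the aspartate kinase gene, rose by 2.97 ± 0.07 and 2.03 ± 0.06.

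In the uracil list 11 of 14 genes were higher and 3 lower on the tetrad route, and 12 were higher and 2 lower on the a-selection route, with medians of 0.78 and 0.44. URA7, a CTP synthase gene, rose by a log2 fold change of 5.76 ± 0.11 and 3.79 ± 0.08, and FUR1, the uracil phosphoribosyltransferase gene, rose by 2.57 ± 0.08 and 1.83 ± 0.06. URA10, an orotate phosphoribosyltransferase gene, fell by -1.90 ± 0.04 and -0.48 ± 0.04. URA7 averaged 14.2 CPM in A1 and 16.6 CPM in A2, populations between which URA3 went from 656 to 0.244 CPM.

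In the histidine list 8 of 11 genes were higher and 2 lower on the tetrad route, and 9 were higher and 2 lower on the a-selection route, with medians of 0.96 and 0.98. HIS1, the ATP phosphoribosyltransferase gene, rose by a log2 fold change of 3.09 ± 0.10 and 1.79 ± 0.07. In the lysine list 8 of 10 were higher and 2 lower on the tetrad route, and 7 were higher and 2 lower on the a-selection route, with medians of 0.52 and 0.43. LYS12, the homoisocitrate dehydrogenase gene, rose by 1.21 ± 0.03 and 0.76 ± 0.03, where LYS2 was at 0.49 ± 0.06 and, not called, at 0.09.

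In the tryptophan list 8 of 10 genes were higher and 1 lower on the tetrad route, and 9 were higher and 1 lower on the a-selection route, while TRP1 fell in both, by -0.51 ± 0.03 and -0.15 ± 0.03. The list's medians were 0.91 and 0.73. TRP2, the anthranilate synthase gene, rose by 1.80 ± 0.03 and 0.88 ± 0.03. Of 9 tested genes for uptake of amino acids and peptides, 2 were higher and 7 lower on the tetrad route, and 3 were higher and 5 lower on the a-selection route, with medians of -0.47 and -0.37. GAP1, the general amino acid permease gene, fell by -0.83 ± 0.02 and -1.04 ± 0.02. PTR2, the peptide transporter gene, fell by -0.47 ± 0.03 on the tetrad route and rose by 2.50 ± 0.04 on the a-selection route.

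Compared per length, the order of the markers differed by group. In A1 URA3 was the highest of the 8, at 816 CPM per kb, ahead of LEU2 at 246 and TRP1 at 239 CPM per kb. In the haploid control MET17 was the highest, at 237 CPM per kb, and in the euploid tetrad population TRP1, at 247 CPM per kb. LYS2 was the lowest in the libraries of A1, at 4.62 CPM per kb.

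Likeness in level was measured by Pearson's r of log2(CPM + 0.5) over the 23 libraries. These libraries share group structure and growth state, and r is given as a description without a test. MET17 was most like SAM2 (r = 0.995), CYS3 (0.975) and SAC1 (0.974), and LYS2 most like DUG3 (0.989), HYP2 (0.988) and MET22 (0.985). HIS3 was most like FAS1 (0.985), ECM33 (0.981) and LCB1 (0.977). TRP1 was most like SHU1 (0.983), SFC1 (0.971) and RSM10 (0.971). LEU2 was most like NVJ1 (0.970), DFP4 (0.965) and PCL8 (0.962). The permeases had lower values, CAN1 with YCK3 (0.940), CQD2 (0.926) and ATG1 (0.914), and LYP1 with SIA1 (0.890), YAF9 (0.890) and ZRT2 (0.871). URA3 had the lowest values, with YHC1 (0.774), TAP42 (0.744) and YAL064W (0.721). YAL064W itself was low, with group means of 0.18 to 1.25 CPM. The names depended on the measure. With Spearman's correlation the most alike gene was a different one for 7 markers and the same, SIA1, for LYP1. MET17, LYS2, LEU2 and URA3 kept none of their named genes, and MET17 was then most like SSA2, TOS6 and ADE57. HIS3 kept FAS1, CAN1 kept YCK3, TRP1 kept RSM10, and LYP1 also kept YAF9.

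The authors' deposited table of their own comparison held 6316 genes, of which 222 had an adjusted p-value under 0.05, and it listed 7 of the 8 markers, none of them among the 222. In the authors' deposited table MET17 had the largest log2 fold change of the 7, at 1.72 with a standard error of 0.47 and a p-value of 2.75e-04, adjusted to 0.187 there (DESeq2 in the submitters' notes). HIS3 followed in the authors' deposited table at 0.73, with a standard error of 0.25 and an adjusted p-value of 0.292. LEU2, whose direction differed by route above, was at 0.66 with a standard error of 0.52 and an adjusted p-value of 0.643 in the authors' deposited table.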

How the data were processed

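Total RNA of 23 libraries was measured by RNA sequencing. The deposited table holds raw counts per gene, and per the submitters' processing notes HTSeq 0.6.1p1, HISAT2 2.0.5, bcl2fastq 2.17.1.14 and FastQC 0.11.5 were used, besides DESeq2 1.14.1, on build R64. The strand setting and the handling of shared reads are not stated there or in the labels. The authors' second table gives a mean of normalized counts (a signal) for each gene, per the file headers, each gene's log2 fold change and standard error, a test statistic (a score) and p-values. Which libraries stood on each side of that comparison is not stated there.

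Counts of 6596 genes (6531 above 0) were filtered with filterByExpr to 6111 genes, scaled with TMM and tested by quasi-likelihood in edgeR 4.0.16, under R 4.3.3 with limma 3.58.1, with a coefficient for each group and 15 residual degrees of freedom. Adjustment was by Benjamini-Hochberg over the 6111 genes, called at 0.05. The common biological coefficient of variation was 5.05%. Separate cultures for replicate libraries are not mentioned in the labels, so p-values measure the spread among libraries only, and that spread may be technical. Each replicate pair differed by more than sampling noise. Names matched RefSeq for 5749 of the 6111 genes. Ratios to groups near 0 are ratios of counts with exact intervals.

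Named genes were the 8 members, their flanking genes, the 3 tested genes of any level most correlated with each member that reached a group mean of 10 CPM (all 8 did) and up to 3 genes a pathway list with the largest called change and average log2 CPM of 3 or more. The members and lists were chosen with earlier results of these data known. Alternatives were other scalings, filters and thresholds, DESeq2 1.42.0, a replicate block, only the groups compared, and leaving out libraries or populations. For likeness in level, Spearman's correlation was the alternative. Counts of the 6111 genes were also simulated with the same mean level of a gene in all groups. For T1 against the euploid tetrad population, 200 genes with average log2 CPM above 3 were changed by a known fold. The test recovered 80.0% of them at 1.2-fold, 99.5% at 1.5-fold and 100% at 2-fold, while also calling 4, 9 and 17 unchanged genes. In the data 81.1% of tested genes were called there, so the simulation does not cover scaling between groups that differ this widely.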

Additional observations from a re-analysis of the deposited data

Results flagged for a closer look

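With TMM scaling, the aneuploid change against the euploid population differed between the tetrad and a-selection routes for 7 of the 8 marker genes. The difference itself was tested (edgeR quasi-likelihood, 71.6% of tested genes called). Each route has 1 euploid population and 2 or 3 aneuploid ones, and p-values measure the spread among libraries only. The calls below therefore describe these populations and are no measure of a route. The difference, tetrad minus a-selection on the log2 scale with its SE, was 4.30 ± 1.38 (adjusted p = 0.00841) for URA3. This fitted value is set against euploid populations of 7 and 3 counts and averages 1 population with abundant URA3 and 2 near 0, so neither its size nor its call is a measure of a route. It was 3.47 (adjusted p = 0.181) without replicate 1 of the euploid a-selection population, 2.45 (0.0588) without A2 and 2.24 (0.0963) without A3. LEU2 was at -2.83 ± 0.05 (3.95e-22), with both T1 and T2 below and A1, A2 and A3 above their euploid population. MET17 was at 1.60 ± 0.07 (7.70e-16), higher in each of the 5 aneuploid populations. CAN1 was at 0.69 ± 0.04 (4.41e-14), with opposite directions by route.

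TRP1 was at -0.36 ± 0.04 (1.35e-08), LYS2 at 0.39 ± 0.08 (1.76e-04) and HIS3 at 0.30 ± 0.08 (0.00243). HIS3 was no longer called without A2, at 0.15 (0.128). LYP1 was not called with TMM, at 0.06 ± 0.04, but was called with RLE factors (0.11), upper-quartile factors (0.12), library totals (0.31), DESeq2 (0.11) and only the groups compared (0.11), and without replicate 3 of A3 (0.074), T1 (0.17) or A3 (0.085). Without T2 it was -0.059.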

How the results depend on the processing

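Of 112 log2 fold changes of the members (8 genes in 14 contrasts), each kept its direction and its side of the threshold under the replicate block, and so did the 14 counts of members called, for example 8 in T1. No pairing by library number was seen in the medians. Same-numbered libraries of different groups had a median correlation of deviations of 0.0045 (range -0.170 to 0.263, 77 pairs) against 0.0025 for other numbers. These deviations are from means of only 2 or 3 libraries, so they do not decide whether libraries of some groups were paired.

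Scaling by library totals alone raised the median of all genes in T1 from -0.04 to 0.23 and in T2 from -0.04 to 0.34, and the share of calls that were higher in T1 from 47.0% to 67.9%. It gave 3 members called between A1 and A2 (5 with TMM), URA3 in both counts, and 7 between the euploid populations (4 with TMM). Under it LYP1 was at 0.017 in T1, 0.36 in T2, 0.19 in their mean and 0.26 in the euploid a-selection population against the haploid control. TRP1 was at 0.021 in A1 and 0.23 between the euploid populations, HIS3 at 0.23 between the euploid populations and 0.027 between T2 and T1, CAN1 at 0.052 between T2 and T1, and LYS2 at 0.016 in A2 and -0.026 between A1 and A2.

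The other sign changes were of members not called. LYP1 in T2 was at 0.011 with RLE factors, 0.011 with DESeq2, 0.067 with upper-quartile factors and 0.037 with only the groups compared. Between the euploid populations HIS3 was at 0.035 with RLE, 0.057 with upper-quartile, 0.034 with DESeq2 and 0.00020 with no filter, and TRP1 at 0.032 with RLE, 0.054 with upper-quartile and 0.032 with DESeq2. Leaving out 1 library in turn, LYP1 in T2 ranged from -0.046 to 0.012. Between the euploid populations HIS3 ranged from -0.069 to 0.064 and TRP1 from -0.027 to 0.028. LYS2 ranged from -0.16 to 0.025 in A1 and from -0.060 to 0.12 between A1 and A2, and URA3 from -1.59 to 0.54 between A3 and A2. Without T2 the route difference of LYP1 was -0.059, and without A3 the mean a-selection change of LYS2 was -0.084. The mean a-selection change of URA3 went from 5.43 to 1.53 without A1, which leaves only populations near 0, so no call is given for it. The mean tetrad change of LYP1 was -0.025 without T1. The cause of these changes was not tested. Over the alternatives, 1853 log2 fold changes kept direction and side of the threshold, 25 gained a call, 19 lost one and 33 changed sign. At 0 to 7 counts a library, URA3 outside T1, T2 and A1 is limited by depth.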
